A study of Mus musculus with 6 samples.

Results

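The genes described here are 46 genes of Toll-like receptor and NF-kB signalling, measured in non-adipocyte cells, as prepared from mesenteric fat of obese mice given propolis or vehicle. They were chosen by name as receptors, co-receptors, adaptors, kinases, transcription factor subunits and inhibitors of the pathway. A probe belonged to a gene where its RefSeq accession maps to that gene. All 46 had a probe, 62 probes in all, and all were tested among 25777 genes and unnamed transcripts. Male ob/ob mice of strain C57BL/6JHamSlc-ob/ob, which lack working leptin and become obese, received Brazilian propolis ethanol extract, a bee product. Each intraperitoneal dose was 100 mg/kg, with 2 doses weekly over 12 weeks. The other group received a vehicle with a low concentration of DMSO and ethanol over the same period, so both groups share the ob/ob mutation and the injections. The stromal vascular fraction, the non-adipocyte cells released from mesenteric fat by collagenase, was treated to lyse red cells, and its RNA was hybridised to 1-colour arrays, 3 per group. The labels call the 3 arrays of a group biological replicates but do not give the number of animals behind each, and the p-values measure only the spread between these samples.

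Toll-like receptors recognise molecules of microbes and of damaged cells, some at the cell surface and others in endosomes. Most signal through the adaptor MyD88 and IRAK kinases to TRAF6, TAK1 and the IKK complex, which marks IkB proteins for breakdown and frees NF-kB dimers to enter the nucleus. Among the genes NF-kB switches on are some of its own inhibitors, such as Nfkbia and Tnfaip3, which close feedback loops. In obese fat, macrophages and stromal cells both carry this pathway, and fatty acids and bacterial lipopolysaccharide are studied as its triggers there.

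The letters upstream of 5 genes of the pathway are shown because 1 of them, Tnip3, is the gene that fell after propolis. All 5 are among the 11 genes of the 46 with a match to the NF-kB consensus site within 250 bases before their start. That each of the 5 holds a match therefore follows from which genes are shown. The sequences are from RefSeq on the mouse assembly GRCm38.p6 and run 5′ to 3′ toward the start, with matches on either strand in capitals. Where matches overlap, the capitals cover their union. Their positions are chr6:65590148-65590397, plus strand, for Tnip3, chr11:54962941-54963190, minus strand, for Tnip1, chr10:19015411-19015660, minus strand, for Tnfaip3, chr12:55492648-55492897, minus strand, for Nfkbia, and chr11:23770970-23771219, minus strand, for Rel.
Tnip3: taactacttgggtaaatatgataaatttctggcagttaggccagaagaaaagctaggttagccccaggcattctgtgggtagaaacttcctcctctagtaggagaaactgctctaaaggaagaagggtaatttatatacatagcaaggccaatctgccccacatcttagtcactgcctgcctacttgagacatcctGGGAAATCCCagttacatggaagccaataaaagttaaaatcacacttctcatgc
Tnip1: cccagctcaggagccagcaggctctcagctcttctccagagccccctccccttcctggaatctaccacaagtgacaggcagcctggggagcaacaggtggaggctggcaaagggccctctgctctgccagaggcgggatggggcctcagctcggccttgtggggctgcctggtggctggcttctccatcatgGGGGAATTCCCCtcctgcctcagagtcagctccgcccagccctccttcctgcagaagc
Tnfaip3: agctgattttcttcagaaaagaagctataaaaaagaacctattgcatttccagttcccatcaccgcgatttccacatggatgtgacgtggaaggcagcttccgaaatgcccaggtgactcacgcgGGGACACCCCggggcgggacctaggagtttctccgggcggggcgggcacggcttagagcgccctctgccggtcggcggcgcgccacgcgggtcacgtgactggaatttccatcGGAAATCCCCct
Nfkbia: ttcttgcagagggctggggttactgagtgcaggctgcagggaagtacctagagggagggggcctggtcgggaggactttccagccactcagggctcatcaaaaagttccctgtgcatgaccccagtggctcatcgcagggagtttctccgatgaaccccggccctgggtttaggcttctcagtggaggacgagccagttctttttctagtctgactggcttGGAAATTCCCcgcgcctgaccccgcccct
Rel: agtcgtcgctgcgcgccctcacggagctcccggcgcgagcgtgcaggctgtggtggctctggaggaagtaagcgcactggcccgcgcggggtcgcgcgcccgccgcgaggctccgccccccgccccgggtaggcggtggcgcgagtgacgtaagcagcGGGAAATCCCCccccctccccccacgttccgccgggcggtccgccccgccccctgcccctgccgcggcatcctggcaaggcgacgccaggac
Tnip3 and Rel hold the same 10-base match, GGGAAATCCC, which fits the consensus read on either strand, 54 to 45 bases before the start of Tnip3 and 92 to 83 before that of Rel. RefSeq windows were at hand for 35 of the 46 genes, and 11 of these, or 31.4%, held a match, against 4.46% of the 27025 genes with a window. Besides the 5 shown these were Tlr2, Tlr3, Map3k7, Traf3, Nfkbie and Nfkb2. Of these 11 genes only Tnip3 passed the test of propolis against vehicle described next. Their median log2 difference was -0.05, and that of the 24 genes with a window and no match was -0.04. A match is a description of letters in this window, and binding was not measured.

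Levels below are log2 intensities with the array's own 75th percentile set to 0, every ± is an SD over n = 3 arrays, and differences are propolis minus vehicle on the log2 scale. Levels of different probes cannot be ranked against each other. The 75th percentile of intensity ran from 459.4 to 729.0 over the 6 arrays, and 61.1% to 66.7% of the spots stood well above background. Slide 1 held replicates 1 and 2 of both groups, and slide 2 held vehicle 3 and propolis 3. The 7 stromal markers (Pdgfra, Pdgfrb, Col1a1, Col3a1, Dcn, Lum and Dpt) averaged 6.05 to 6.11 on the vehicle arrays and 6.26 to 6.52 on the propolis arrays, with 4 of 7 means higher after propolis, all 4 without overlap of the groups, and none past the test. The 10 macrophage markers averaged 3.83 to 4.27 over the 6 arrays. Markers of neighbouring organs were high on single vehicle arrays. The 4 measured pancreatic acinar markers averaged 5.14 on vehicle 2, against -4.27 to -2.83 elsewhere, and the 7 intestinal markers averaged 5.38 on vehicle 3, against -2.40 to 0.08 elsewhere. In the plot of marker lists by array, vehicle 2 and vehicle 3 therefore stand far to the right in 1 list each. In bulk RNA, fewer cells of a type and less RNA per cell cannot be told apart.

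**Figure D1:**
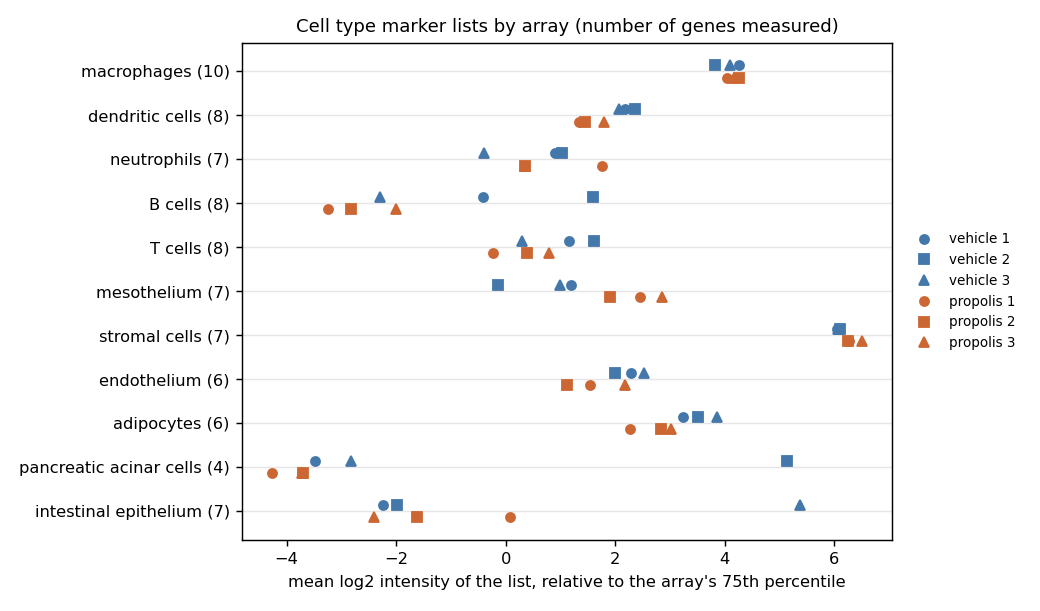
Mean log2 intensity of each cell type marker list, relative to the array's 75th percentile (x axis), for the 6 arrays, with vehicle in blue and propolis in orange and the symbol shape marking the replicate. The number of genes measured stands beside each list. Acinar markers reach 5.14 on vehicle 2 and intestinal markers 5.38 on vehicle 3, while the macrophage list lies between 3.83 and 4.27 on every array.

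The question put to these genes was which of them differ in the stromal vascular fraction after propolis. Most differed little between the groups, and Tnip3 was the exception that passed the test. Of the 46 genes, limma called 1, which fell, and 0 that rose, at an adjusted p under 0.05 over all genes tested. The same rule called 0.834% of all genes and transcripts, 0.722% higher and 0.113% lower. At an unadjusted p under 0.05 there were 5 of 46, 3 higher and 2 lower, against 11.7% of all genes, 7.24% higher and 4.48% lower. The 3 vehicle and 3 propolis values did not overlap for 7 of the 46, 4 higher and 3 lower, against 17.4% of all genes, 10.8% higher and 6.62% lower. Both of these shares of the 46 are near the background.

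The 46 differences had a median of -0.03, with 22 means higher and 24 lower, and all genes tested had a median of -0.00. Without regard to sign, the median difference was 0.16 for the 46 and 0.25 for all genes. A difference under 0.5 was seen for 38 of the 46, or 82.6%, and for 75.9% of all genes. The 95% interval of the difference lay inside a 2-fold change in both directions for 33 of the 46, or 71.7%, and for 57.0% of all genes. Scaling the arrays on their medians moved the median over all genes from -0.00 to 0.15 and that of the 46 to 0.13, so small differences and their signs are relative to the scaling. In the plot of differences by role, Tnip3 is the gene whose interval lies wholly below -1.

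**Figure D2:**
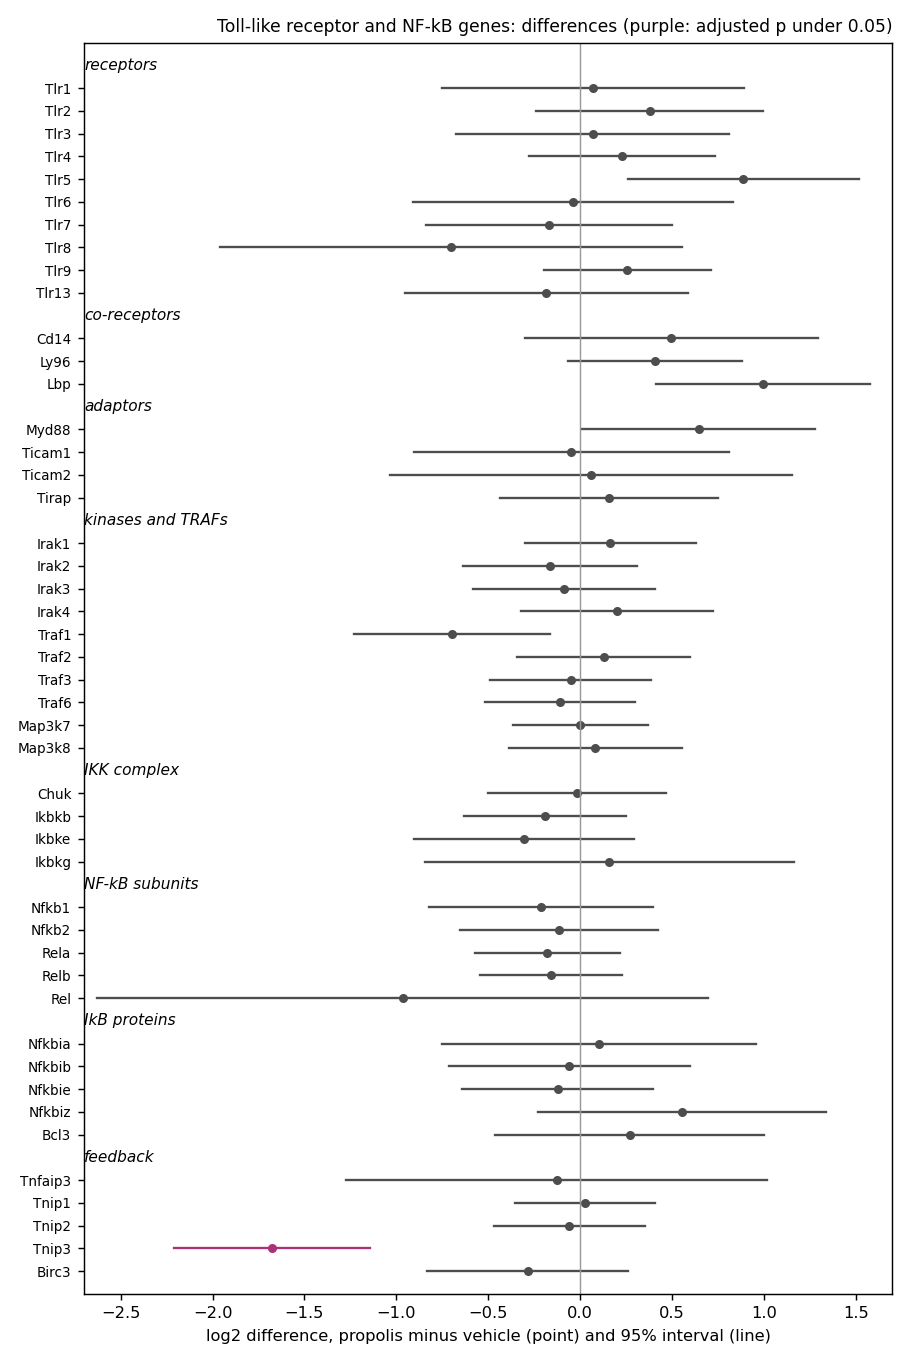
Log2 difference of propolis minus vehicle (x axis; points) with its 95% interval from limma (lines) for each of the 46 genes, in blocks by role, 3 arrays per group. Tnip3, in purple, lies at -1.68 with an interval of -2.21 to -1.14, and 41 of the other genes have intervals that include 0.

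Tnip3 encodes ABIN-3, of the family named A20-binding inhibitors of NF-kB, and its action on NF-kB was not measured. Its level was 0.02, -0.08 and 0.08 on vehicle arrays 1, 2 and 3, and -1.44, -2.07 and -1.50 on propolis arrays 1, 2 and 3. All 3 propolis arrays lay below all 3 vehicle arrays, and propolis 2 was the lowest. The mean fell from 0.01 ± 0.08 to -1.67 ± 0.35, which is 3.20-fold lower (limma difference -1.68 with standard error 0.22, adjusted p = 0.0361). By unadjusted p it ranked 146 among the 25777 genes and transcripts. Slide 1 gave a difference of -1.73 and slide 2 one of -1.57, and a slide block kept the call (limma adjusted p = 0.0438).

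A second Tnip3 probe, A_51_P200544, moved the same way. It read -2.38, -2.77 and -2.73 on the vehicle arrays and -5.45, -6.23 and -5.64 on the propolis arrays, where none stood well above background. Its mean went from -2.62 ± 0.22 to -5.77 ± 0.40 (adjusted p = 0.0109 in a limma fit of every probe, with the propolis readings used as given). A nominal bound put it at least 7.21-fold lower. For that bound, each propolis array counted at its dimmest probe that was well above background, or at the Tnip3 probe itself where brighter. The size of the fall on this probe is thus known only as that nominal bound. In it, propolis 1 and propolis 3 counted at their own readings, although these were not well above background. The call on Tnip3 was lost when any 1 of the 6 arrays was left out, with limma adjusted p between 0.0671 and 0.155, while the difference stayed between -1.79 and -1.47. Without vehicle 2 and vehicle 3, the arrays with acinar and intestinal transcripts, the difference was -1.69 (limma adjusted p = 0.581, with 1 vehicle array assumed to vary like the propolis arrays). The call was lost too without the filter on dim probes (adjusted p = 0.0667) and on slide 1 alone (adjusted p = 0.0955).

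Neither of its 2 relatives in the family passed the test. Tnip1, encoding ABIN-1, was at 3.83 ± 0.06 in vehicle and 3.86 ± 0.10 in propolis, a difference of 0.03 with a 95% interval of -0.35 to 0.41. Tnip2, encoding ABIN-2, was at 2.50 ± 0.16 and 2.44 ± 0.09, with an interval of -0.47 to 0.35. Both intervals lie apart from that of Tnip3, although the difference between the genes was not tested. Beside the fall of Tnip3, the 8 dendritic cell markers measured averaged 2.08 to 2.36 on the vehicle arrays and 1.35 to 1.80 on the propolis arrays. Of these 8, 7 had lower means and 1 fell, Itgax, the CD11c integrin gene, with a difference of -2.18 (limma adjusted p = 0.0405). Ccr7 differed by -2.20 without overlap of the groups (limma adjusted p = 0.26). The remaining lower means were smaller, from -0.55 for Clec9a to -0.05 for Clec10a, so the list mean rests largely on Itgax and Ccr7. Cd209a went the other way by 0.82, without overlap of the groups (limma adjusted p = 0.203). The summed linear level of the list was 215.4 to 266.6 times the 75th percentile in vehicle and 187.8 to 197.2 in propolis. Most of that sum came from the 2 brightest probes, Siglech and Clec10a, and it says little about the dimmer genes. Siglech differed by -0.32 without overlap of the groups and Clec10a by -0.05 with overlap. Xcr1, a defining gene of cross-presenting dendritic cells, did not pass the filter on dim probes, and the part of these cells in the Tnip3 result was not tested. Other lists had lower means too, 8 of 8 B cell, 8 of 8 T cell, 6 of 6 endothelial and 6 of 6 adipocyte markers, with 0 called in any of the 4. The endothelial list averaged 1.99 to 2.54 in vehicle and 1.13 to 2.19 in propolis, and the adipocyte list 3.25 to 3.86 and 2.28 to 3.03, so the groups overlapped for the former and not for the latter. Their part was not tested either. The macrophage list overlapped between groups, at 3.83 to 4.26 in vehicle and 4.05 to 4.27 in propolis.

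**Figure D3:**
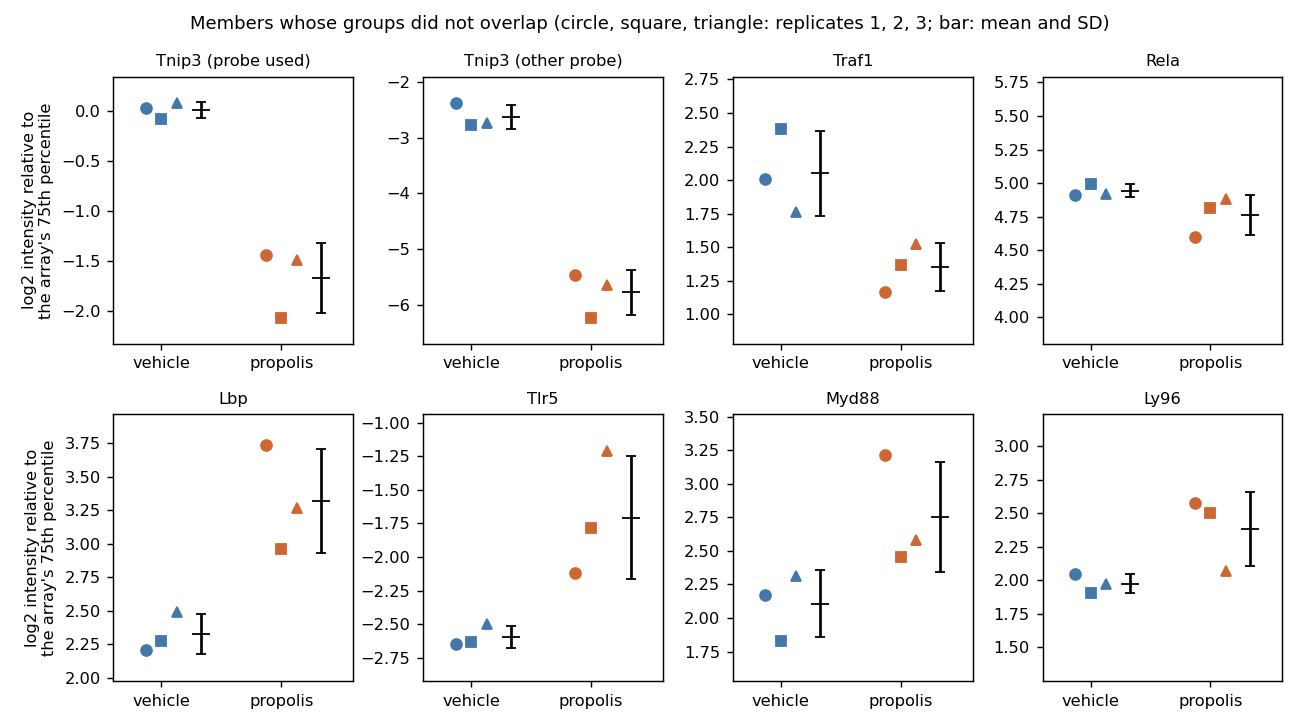
Level of the 7 genes whose groups did not overlap, and of the second Tnip3 probe, on each array (y axis, log2 intensity relative to the array's 75th percentile; vehicle blue, propolis orange; bars show mean and SD, n = 3). The Tnip3 groups are separated by more than 1 unit on both probes, while Rela and Ly96 separate by less than 0.1 at their nearest values.

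Among the 10 receptors, 6 had higher and 4 had lower means, none passed the test, and 1 had an unadjusted p below 0.05. That one was Tlr5, the cell surface receptor for bacterial flagellin. It was at -2.65, -2.63 and -2.50 on the vehicle arrays and at -2.12, -1.79 and -1.21 on the propolis arrays. Every propolis array lay above every vehicle array, with propolis 3 the highest. The difference was 0.89 (limma adjusted p = 0.246), and it was 0.69 on slide 1, 1.29 on slide 2 and 0.95 without vehicle 2 and vehicle 3.

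The lipopolysaccharide receptor Tlr4 was at 1.12 ± 0.16 in vehicle and 1.35 ± 0.29 in propolis. Tlr2, which pairs with Tlr1 or Tlr6 to sense bacterial lipoproteins, was at 2.55 ± 0.21 and 2.93 ± 0.41. Its partners differed by 0.07 for Tlr1 and -0.04 for Tlr6. None of these 4 passed the test, and the groups overlapped for each. In the endosome, Tlr3 senses double-stranded RNA, Tlr7 and Tlr8 single-stranded RNA, Tlr9 unmethylated CpG DNA and Tlr13 bacterial ribosomal RNA. Their differences were 0.07 for Tlr3, -0.17 for Tlr7, -0.70 for Tlr8, 0.26 for Tlr9 and -0.18 for Tlr13, with overlapping groups for all 5. The Tlr8 difference rests on propolis 1, which read -4.54 against -3.12 to -2.44 on the other 5 arrays, and without that array it was -0.13. A second Tlr7 probe differed by 0.08, so the 2 Tlr7 probes had opposite signs.

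All 3 co-receptor genes of the lipopolysaccharide complex had higher means after propolis, and none passed the test. Lbp, encoding the acute-phase protein that delivers lipopolysaccharide to CD14, had the largest positive difference of the 46. It read 2.21, 2.28 and 2.49 on the vehicle arrays and 3.73, 2.96 and 3.27 on the propolis arrays. No vehicle array reached the lowest propolis array. The difference was 0.99, or 1.99-fold (limma adjusted p = 0.164), with a 95% interval of 0.41 to 1.58, and it was 1.10 on slide 1, 0.77 on slide 2 and 1.11 without vehicle 2 and vehicle 3. Ly96, encoding the MD-2 subunit that binds lipopolysaccharide, read 2.05, 1.91 and 1.97 in vehicle and 2.58, 2.50 and 2.07 in propolis. Its groups just failed to overlap, since propolis 3 lay 0.02 above vehicle 1, and the limma adjusted p was 0.507. Cd14 was at 4.17 ± 0.43 and 4.67 ± 0.48, with overlapping groups, and its difference of 0.50 was 0.13 without vehicle 2 and vehicle 3.

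Beside the higher means of Lbp and Tlr5, the 7 mesothelial markers measured all had higher means, and 2 of them rose, Bnc1 and Wt1. That list averaged -0.14 to 1.19 on the vehicle arrays and 1.90 to 2.85 on the propolis arrays, and its summed linear level was 15.4 to 52.7 in vehicle and 56.6 to 90.8 in propolis. Krt19 of that list read 5.24 on vehicle 3, the array with intestinal transcripts, against 0.28 to 3.13 on the other arrays. Its difference was 0.14, with a 95% interval of -2.74 to 3.03. Muc16 of the mesothelial list did not pass the filter on dim probes. The stromal list was higher without overlap too, at 6.05 to 6.11 in vehicle and 6.26 to 6.52 in propolis, with 4 of 7 means higher. The part of mesothelial or stromal cells in the Lbp and Tlr5 values was not tested.

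Of the 4 adaptors, Myd88 alone had an unadjusted p under 0.05. MyD88 is shared by nearly all Toll-like receptors and the interleukin-1 receptors. Myd88 read 2.18, 1.83 and 2.31 on the vehicle arrays and 3.22, 2.46 and 2.58 on the propolis arrays. The groups did not overlap, and propolis 1 stood apart from its own group. The difference was 0.65 (limma adjusted p = 0.419), and it was 0.83 on slide 1, 0.27 on slide 2 and 0.41 without propolis 1. Tirap, the bridging adaptor of MyD88, differed by 0.16. Ticam1, encoding TRIF, and Ticam2, encoding TRAM, which serve the interferon-inducing branch, differed by -0.05 and 0.06. The Ticam2 interval, -1.04 to 1.15, covers a 2-fold change either way.

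The 10 kinases and TRAF proteins were split evenly, with 5 means higher and 5 lower, and limma called 0. Traf1, encoding a TRAF protein without a RING domain that NF-kB itself induces, had the largest difference. Its values were 2.01, 2.38 and 1.76 in vehicle and 1.17, 1.37 and 1.52 in propolis. The lowest vehicle array, vehicle 3, lay above the highest propolis array, propolis 3. The difference was -0.70, or 1.62-fold lower (limma adjusted p = 0.286). It was -0.93 on slide 1, -0.24 on slide 2 and -0.53 without vehicle 2. Beside it, the 8 B cell markers measured averaged -0.42, 1.59 and -2.29 on vehicle arrays 1, 2 and 3 and -3.24 to -2.002 on the propolis arrays, and within each group their order over the arrays is that of Traf1. The summed B cell level was 3.85 to 62.8 in vehicle and 2.77 to 4.60 in propolis, and Pax5 of the list did not pass the filter. The 8 T cell markers, which average 0.30 to 1.61 and -0.23 to 0.79, have that order too. So do the 8 dendritic cell markers, at 2.08 to 2.36 and 1.35 to 1.80. Their groups did not overlap, unlike those of the B and T cell lists. Ccr7 had the widest spread of the dendritic cell list. It read 3.06, 4.04 and 2.15 in vehicle and 0.02, 0.54 and 2.08 in propolis. Without Ccr7 the vehicle order of that list is no longer the order of Traf1. Itgax of the list was highest on vehicle 3, at 4.37. The part of any of these cell types in the Traf1 values was not tested.

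The IRAK kinases act next to MyD88. Irak1 and Irak4 differed by 0.16 and 0.20, Irak2 by -0.16, and Irak3, the member that restrains the others in macrophages, by -0.09. Traf6, the ubiquitin ligase they activate, differed by -0.11, Traf2 by 0.13 and Traf3 by -0.05. Map3k7, which encodes TAK1, was the steadiest of the 46 on the probe used, at 1.73 ± 0.04 in vehicle and 1.73 ± 0.07 in propolis. Its 95% interval ran from -0.37 to 0.37. A dimmer Map3k7 probe was less steady, at -0.95 ± 0.02 in vehicle and -1.16 ± 0.49 in propolis, a difference of -0.20. Map3k8, encoding TPL2 of the ERK branch, differed by 0.08. Within this block, Irak1, Irak4, Map3k7 and Traf2 each had entering probes of opposite sign, at most 0.32 apart, and the same held for Tnip1 and Tlr7 among the 13 genes with more than 1 probe.

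In the IKK complex, Chuk, encoding IKK-alpha, differed by -0.02, Ikbkb, encoding IKK-beta, by -0.19, and Ikbkg, encoding the scaffold NEMO, by 0.16. The related kinase gene Ikbke differed by -0.31. Limma called 0 of these 4, 0 had an unadjusted p under 0.05, and the groups overlapped for all of them. Ikbkg was high on propolis 1, at -0.81, against -2.42 to -1.61 on the other 5 arrays.

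All 5 NF-kB subunit genes had lower means after propolis, although Nfkb2 turned to 0.04 under median scaling, and none passed the test. Rela, encoding the p65 subunit, read 4.91, 4.997 and 4.92 in vehicle and 4.60, 4.82 and 4.88 in propolis. These groups did not overlap, by a gap of 0.03, and the difference was -0.18 (limma adjusted p = 0.755). Relb, Nfkb1 and Nfkb2, whose products are RelB, p105/p50 and p100/p52, differed by -0.16, -0.21 and -0.11 with overlapping groups, and a second Nfkb1 probe by -0.54. Under median scaling the differences of Rela and Relb were -0.02 and -0.00.

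Rel, which encodes c-Rel of lymphocytes and myeloid cells, had the widest spread of the 46. It was at -3.28, -3.22 and -5.07 on the vehicle arrays and at -4.09, -4.38 and -5.99 on the propolis arrays. Both arrays of slide 2 were the lowest of their group, and propolis 3 did not measure Rel well above background. On slide 1, where all 4 arrays measured it, the difference was -0.99. On slide 2 only a bound is known for propolis 3. The limma adjusted p was 0.682 without a block and 0.0575 with slide as a block, above 0.05 both ways, and both fits use the propolis 3 reading as given.

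Of the 5 IkB genes, limma called 0 and the groups overlapped for each. Nfkbia, the inhibitor gene that NF-kB induces within its fastest feedback loop, was at 5.75 ± 0.45 in vehicle and 5.85 ± 0.54 in propolis. Nfkbib and Nfkbie, encoding the beta and epsilon forms, differed by -0.06 and -0.12, and the 3 Nfkbib probes ranged down to -0.50. The atypical nuclear members had larger positive differences, 0.55 for Nfkbiz and 0.27 for Bcl3. Nfkbiz read 1.32, 0.88 and 1.40 in vehicle and 1.81, 1.16 and 2.29 in propolis, so propolis 2 lay inside the vehicle range.

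In the block drawn as feedback, besides the TNIP family, Tnfaip3 was at 3.45 ± 0.63 in vehicle and 3.32 ± 0.76 in propolis. It encodes the ubiquitin-editing enzyme A20, to which the ABIN proteins bind. Birc3, encoding the ubiquitin ligase cIAP2, was at -0.01 ± 0.27 and -0.29 ± 0.26. Neither passed the test. The Tnfaip3 interval, -1.27 to 1.02, is among the wider ones and does not exclude a 2-fold change.

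For some inducible genes, single arrays differed more than the groups did. Vehicle 1 and propolis 1, from opposite groups, had the highest values of both induced inhibitors, Tnfaip3 at 4.13 and 4.18 against 2.75 to 3.34 elsewhere, and Nfkbia at 6.26 and 6.46 against 5.41 to 5.69. Dusp1, an immediate early phosphatase gene chosen here after its values were seen, was also highest on these arrays, at 5.89 and 6.57 against 5.02 to 5.48. The immediate early genes Jun and Fos, also chosen that way, were highest on propolis 3 instead, at 7.37 and 6.84. Jun was lowest on propolis 1, at 6.54. Propolis 1 held the highest value for 15 of the 46 genes, or 32.6%, and for 22.1% of all genes. Propolis 2 held the lowest for 13 of them, or 28.3%, and for 12.9% of all genes. The median deviation of the 46 from their 6-array means was 0.10 on propolis 1, and that of all genes there was -0.02. The 7 neutrophil markers measured averaged 1.76 on propolis 1, against -0.40 to 1.03 on the other arrays. Of that list Csf3r was lowest on propolis 1, at 6.69, and Camp was highest on vehicle 1, at 1.05. Ly6g did not pass the filter on dim probes, and the part of neutrophils in the propolis 1 values was not tested. The SD within groups had a median of 0.28 over the 46, from 0.06 for Map3k7 to 1.04 for Rel, and of 0.32 over all genes.

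**Figure D4:**
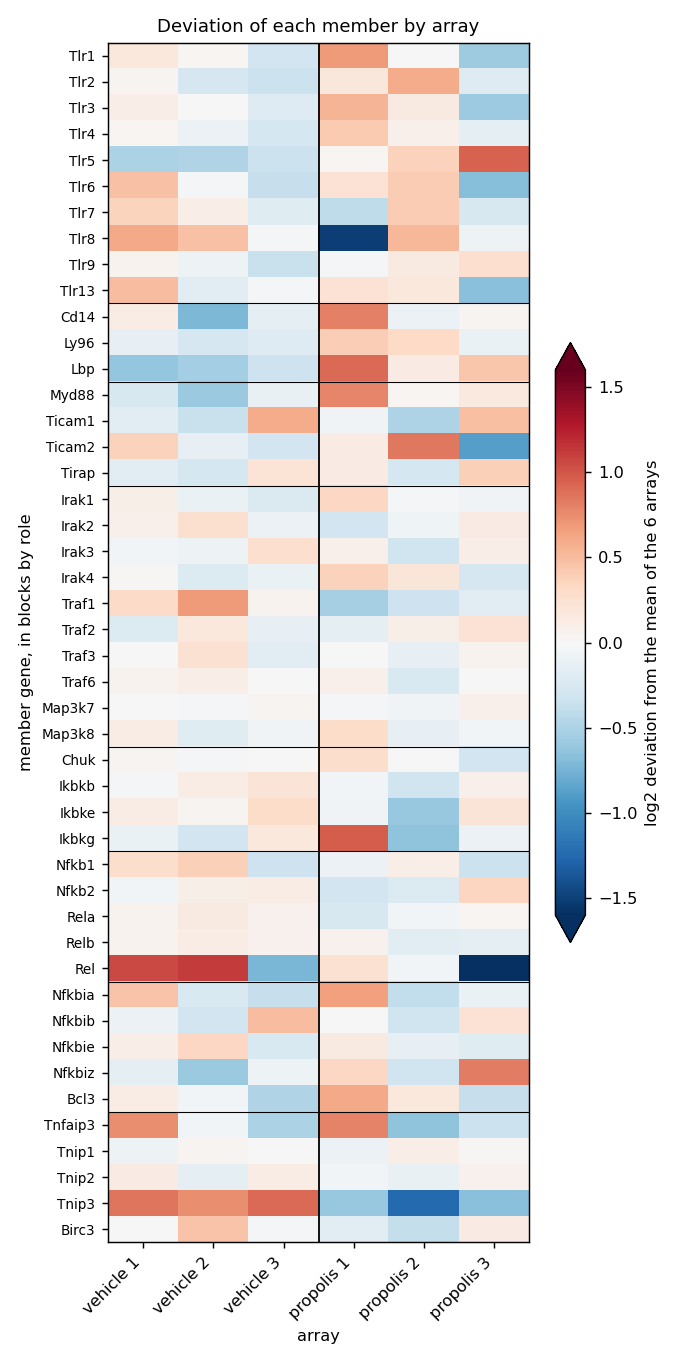
Log2 deviation of each gene (rows, in blocks by role) on each array (columns) from its mean over the 6 arrays; red is higher, blue lower, and arrows on the colour bar mark values past its ends. Tnip3 is higher on all 3 vehicle arrays and lower on all 3 propolis arrays, while Tnfaip3 and Nfkbia are red on vehicle 1 and propolis 1.

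A list of 45 other pathway genes, from receptor chaperones to ubiquitin ligases and MAP kinases, had 44 measured. Limma called 0 of them. At an unadjusted p under 0.05 there were 5 of 44, 1 higher and 4 lower, against 11.7% of all genes, 7.24% higher and 4.48% lower. The groups did not overlap for 12 of 44, 4 higher and 8 lower, against 17.4% of all genes, 10.8% higher and 6.62% lower. The median difference was -0.09. The 4 of lowest p all had lower means. Cd180, which encodes the Toll-like surface protein RP105, went from -1.71 ± 0.33 to -2.72 ± 0.35 (limma adjusted p = 0.195). Cd36, encoding a fatty acid scavenger receptor that assists the Tlr2 and Tlr6 pair, was at 5.98 ± 0.22 and 4.76 ± 0.61 (limma adjusted p = 0.210). Sigirr, encoding an inhibitory receptor of the family, differed by -0.91, and Irf5, encoding a transcription factor downstream of MyD88, by -0.56. The groups did not overlap for any of these 4. Cd36 is abundant in adipocytes and endothelium, whose lower lists are given above, and their part in the Cd36 values was not tested.

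The differences of genes that NF-kB is known to switch on ranged more widely, in both directions, and that width was not tested. Of 40 listed, 35 were measured, with 18 means higher and 17 lower, and limma called 0. At an unadjusted p under 0.05 there were 12 of 35, 7 higher and 5 lower, against 11.7% of all genes, 7.24% higher and 4.48% lower. The groups did not overlap for 10 of 35, 5 higher and 5 lower, against 17.4% of all genes, 10.8% higher and 6.62% lower. Their median difference was 0.22, and without regard to sign it was 0.76, against 0.16 for the 46 pathway genes and 0.25 for all genes. The 95% interval lay inside a 2-fold change in both directions for 6 of 35, or 17.1%. That share was 71.7% for the 46 and 57.0% for all genes. The SD between arrays ran from 0.04 for Cd80 to 2.06 for Cxcl3 in vehicle. In propolis it ran from 0.14 for Ccl3 to 2.90 for Cxcl3. The macrophage chemokine gene Ccl3 read 2.84, 2.53 and 2.47 in vehicle and 3.73, 3.45 and 3.58 in propolis (limma adjusted p = 0.0906). Every propolis array stood above every vehicle array. Ptgs2, encoding cyclooxygenase 2, differed by 2.38 (limma adjusted p = 0.146). In the other direction, Il1rn, encoding the interleukin-1 receptor antagonist, differed by -2.03 (limma adjusted p = 0.0980). Ccl22, a chemokine gene of dendritic cells and macrophages, differed by -1.78, and only 1 of the 3 propolis arrays measured it well above background. Among targets chosen after their values were seen, the cytokine gene Tnf differed by -0.46, Il1b by 1.19 and Il6 by 1.84, with overlapping groups for all 3. In the plot of differences by list, the pathway genes cluster near 0 and the target genes spread to both sides.

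**Figure D5:**
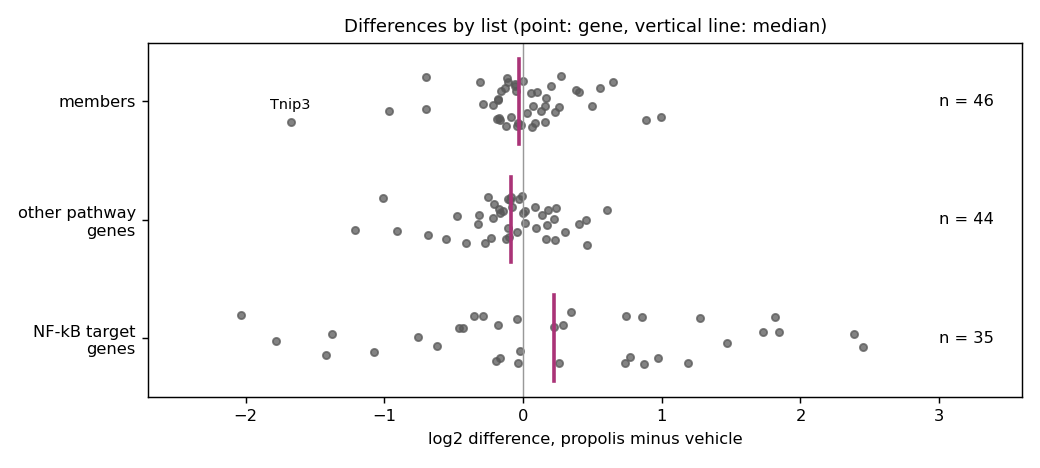
Log2 difference of propolis minus vehicle (x axis) for each of the 46 genes (members), the 44 other pathway genes and the 35 NF-kB target genes; points are genes, spread vertically for legibility, and vertical lines are medians. The medians are -0.03, -0.09 and 0.22, and Tnip3 at -1.68 is the lowest of the 46.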

How the data were processed

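RNA of 6 samples was hybridised to 1-colour (Cy3) Agilent mouse arrays, 3 vehicle and 3 propolis. Per the file headers and the submitters' processing notes, they were read with Agilent Feature Extraction 10.7.3.1 on a design made on mm9. The deposited scanner tables hold a background-subtracted fluorescence intensity on a linear scale. Values in the deposited series table are log2 numbers whose 75th percentile lies near 0 on each array, with medians of -3.97 to -3.62. They correlated with the log2 scanner signal at 1.00 on each array, and served as an alternative.

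The intensity was turned to log2, non-uniform spots were left out, spots of a probe were averaged and arrays were scaled by subtracting their own 75th percentile. Probes well above background on at least 3 of 6 arrays entered (34786 of 55681), and 34782 had a value on every array. A gene's brightest entering probe represented it. RefSeq accessions were named through a GRCm38.p6 table, which named 27235 probes. All 62 probes of the 46 genes entered, so none was dropped.

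The test was limma 3.58.1, run in R 4.3.3 (lmFit and eBayes, no block, Benjamini-Hochberg over all 25777 features, threshold 0.05). An exact permutation p of 3 against 3 cannot go below 0.1. On simulated data of this comparison over 25777 features, the test found 9.25% of genes changed 2-fold, 56.0% of those changed 4-fold and 88.6% of those changed 16-fold. The number of arrays limits the precision. The genes named are the 46 and, by rule, up to 4 of lowest p in each of the 2 further lists. Dusp1, Jun, Fos, Tnf, Il1b and Il6 fall outside that rule, and marker genes are named where a list is described. The 46 genes, lists and marker lists were chosen with earlier results of these data known. Alternatives covered background correction, scaling, filter, flags, probe rule, variance model, slide, replicate number, the series table and left-out arrays. The scanner tables gave medians for normexp (offset 50).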

Additional observations from a re-analysis of the deposited data

How the results depend on the processing

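Over 19 alternative settings, none of the 45 genes that missed the threshold was called in any, and 24 of the 46 kept the sign of their difference in all. The other 22 changed sign in some setting, and Rel, absent under the filter of all 6 arrays, was tested in 18. Tnip3 kept its direction in all 19, from -2.41 to -1.42, and was called in 9 of them. It was not called without a filter on dim probes, where 106 genes of all kinds passed and 0 of the 46, on slide 1 alone (0 and 0) or without vehicle replicates 2 and 3 together (0 and 0, limma adjusted p = 0.581 for Tnip3). With each array left out in turn, 11 to 94 genes passed against 215 with all arrays, 0 of the 46 among them. At an unadjusted limma p under 0.05 there were 5856 genes and 6 of the 46 on slide 1 alone, 1362 and 2 without vehicle 2 and vehicle 3, 3338 and 4 without the filter, and 1974 to 4846 and 3 to 6 with 1 array left out.

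The groups did not overlap for 20 of the 46 on slide 1 alone, for 14 without vehicle 2 and vehicle 3, and for 8 to 16 with 1 array left out, where smaller groups overlap less often by construction. The shares of all genes were 60.4% on slide 1, 47.7% without those 2 arrays and 21.5% to 41.8% with 1 array left out. Median scaling moved the median difference of the 46 from -0.03 to 0.13, and that of all genes to 0.15, while 317 genes passed. With slide as a block 313 passed.

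Same-numbered arrays of the groups deviated together with correlations of 0.04, 0.29 and 0.14 for numbers 1, 2 and 3. Not every one is above 0.1, so the numbers were not taken as pairs, although replicates 3 also share slide 2, and vehicle 1 correlated better with propolis 2 (0.21) than with propolis 1. With the replicate block 73 genes passed and 0 of the 46 (3964 and 8 at an unadjusted p under 0.05; Tnip3 limma adjusted p = 0.0701). Probe-level and gene-level fits cannot show changes in dim genes, such as Rel on propolis 3, below the lowest signal measured well above background.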
